A study of Mus musculus with 19 samples.

Results

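Mitochondrial ribosomal protein genes were examined in ribosome-bound mRNA of mouse spinal cord cholinergic neurons across the 24-h day. The genes were taken by name, as all rows whose symbol began with Mrpl (large subunit) or Mrps (small subunit) followed by a digit, without pseudogenes. This gave 78 of the 50559 rows, 49 Mrpl and 29 Mrps. The samples were 10-wk-old male C57BL/6J mice of the genotype ChAT-Cre;RiboTag fx/+, called wild-type in the labels, kept under a 12-h light and 12-h dark cycle. RiboTag adds a hemagglutinin tag to a ribosomal protein of the cytosol in cells that express Cre, and ChAT-Cre is driven from the choline acetyltransferase gene, so that precipitation of the tag recovers mRNA on cytosolic ribosomes of cholinergic cells. Tissue was taken at Zeitgeber time (ZT, hours after lights on) 0, 4, 8, 12, 16 and 20, with 3 biological replicates each, and 1 further library came from pooled input, the RNA of the homogenate before precipitation. No library from animals without the tag was used here. Per the study's methods, each homogenate was made from 1 spinal cord.

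The mitochondrial ribosome translates the few proteins encoded by mitochondrial DNA, which are core subunits of the respiratory chain complexes and ATP synthase. Its protein components are all encoded in the nucleus, translated in the cytosol and imported, so their mRNAs can be found on tagged cytosolic ribosomes. Some have bacterial counterparts and others occur only in mitochondria. The grouping here follows the symbols alone, and whether each protein belongs to the ribosome or to the subunit of its symbol was not examined. The proteins of Mrps18a and Mrps30, for instance, are known to sit in the large subunit.

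The members' promoters were searched for 6 motifs, a promoter being the 250 bases before and the 50 after a transcription start given by RefSeq for GRCm38.p6 (mm10). A promoter was found for 69 of the 78 members, and for 21 of them the start lay inside the annotated span of the gene, by up to 10282 bases (Mrps23). None of the motifs stood in more than 24 of the 69. The NRF1 motif GCGCANGCG was searched because nuclear respiratory factor 1 binds many genes of mitochondrial function, and the ETS motif CCGGAAG because GABP, or nuclear respiratory factor 2, belongs to that family. Both strands were read, and none of the motifs searched contains another. The ETS letters stood in 24 of the 69 member promoters (34.8%), against 16.4% of 11734 promoters of other tested genes and 9.14% of 27025 promoters in all. The NRF1 letters stood in 16 (23.2%), against 12.9% and 6.49%. The YY1 motif AAGATGGCG, of the factor Yin Yang 1, stood in 8 (11.6%), against 2.79% and 1.48%. The E-box CACGTG, the motif bound by CLOCK and BMAL1, stood in 5 (7.25%), against 9.97% and 7.24%. The cAMP response element TGACGTCA was present in 2 (2.9%, against 3.1% and 1.85%) and the D-box TTATGNAA in 1 (1.45%, against 1.93% and 3.53%). Median GC content was 58.3% in the members' promoters and 60.7% in those of other tested genes.

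The promoters of 4 members follow, 5′ to 3′ on the strand of the gene, with matches to these motifs in capitals. Mrps9 had the lowest p of the small subunit for a 24-h rhythm, and Mrps18a, Mrps18b and Mrps18c are paralogs whose levels over the day are compared further on.
Mrps9 promoter, chr1:42850983-42851282, plus strand: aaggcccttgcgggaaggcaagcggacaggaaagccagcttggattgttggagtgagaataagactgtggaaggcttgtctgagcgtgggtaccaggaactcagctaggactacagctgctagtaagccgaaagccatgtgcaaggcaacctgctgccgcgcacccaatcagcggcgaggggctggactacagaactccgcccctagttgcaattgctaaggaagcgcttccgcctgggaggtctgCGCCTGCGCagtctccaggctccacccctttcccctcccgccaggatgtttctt
Mrps18a promoter, chr17:46110754-46111053, plus strand: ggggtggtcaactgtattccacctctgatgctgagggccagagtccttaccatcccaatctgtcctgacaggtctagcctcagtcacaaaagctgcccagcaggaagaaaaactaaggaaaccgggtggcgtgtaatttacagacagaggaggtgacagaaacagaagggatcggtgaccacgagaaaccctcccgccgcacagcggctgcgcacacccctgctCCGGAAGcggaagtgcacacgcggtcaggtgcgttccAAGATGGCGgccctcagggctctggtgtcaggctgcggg
Mrps18b promoter, chr17:35916391-35916690, minus strand: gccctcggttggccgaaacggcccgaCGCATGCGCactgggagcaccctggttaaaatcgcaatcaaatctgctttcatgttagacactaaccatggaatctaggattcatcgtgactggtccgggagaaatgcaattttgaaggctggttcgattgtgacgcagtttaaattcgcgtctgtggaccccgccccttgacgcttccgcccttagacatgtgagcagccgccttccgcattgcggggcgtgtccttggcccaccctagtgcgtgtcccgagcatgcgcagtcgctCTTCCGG
Mrps18c promoter, chr5:100798509-100798808, plus strand: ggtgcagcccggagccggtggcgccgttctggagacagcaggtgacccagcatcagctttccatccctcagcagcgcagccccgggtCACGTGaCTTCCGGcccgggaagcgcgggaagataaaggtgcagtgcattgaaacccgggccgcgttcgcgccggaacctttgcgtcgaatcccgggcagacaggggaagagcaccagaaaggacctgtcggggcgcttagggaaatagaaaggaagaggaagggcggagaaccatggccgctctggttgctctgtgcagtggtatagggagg
The capitals mark 1 NRF1 match in Mrps9, an ETS and a YY1 match in Mrps18a, an NRF1 and an ETS match in Mrps18b, and an E-box beside an ETS match in Mrps18c.

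A gene on the opposite strand started within 500 bases upstream for 23 of the 69 members (33.3%), against 15.6% of other tested genes. Mrpl46 and Mrps11, 1 gene of each subunit, started 42 bases apart on chromosome 7 and share 1 promoter region. Among the other partners were Sars2, the mitochondrial seryl-tRNA synthetase (147 bases from Mrps12), Twnk, the helicase of mitochondrial DNA (116 bases from Mrpl43), and Ndufb5, a subunit of respiratory complex I (308 bases from Mrpl47). The members lay on 17 chromosomes, with 11 on chromosome 11.

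Library totals were 6302140 to 22406850 counts in the 18 immunoprecipitates and 15239783 in the input. The 7 cholinergic neuron markers (Chat, Slc5a7, Slc18a3, Ache, Isl1, Mnx1 and Prph) had a median log2 ratio to the input of 2.39, and 6 of the 7 were above it. The 7 oligodendrocyte markers were all below the input (median log2 ratio -3.45) but summed to between 1503 and 2876 CPM (counts in proportion to the TMM-scaled total of a library) in the immunoprecipitates, so mRNA of other cells was present. The markers of astrocytes (6 of 6), microglia (6 of 6), endothelial cells (4 of 4) and erythrocytes (4 of 4) were below the input as well, as were 3 of 4 of inhibitory and 2 of 3 of excitatory neurons. The p-values of tests between time points below rest on the spread between biological replicates, pooled over the time points. In the cosine fit the spread also takes in departures of the time points from the curve. JTK_Cycle uses ranks over the 18 libraries.

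Most members were enriched on the tagged ribosomes. With 1 input there is no test, and a member was counted as above the input when its mean was at least 2-fold higher and all 18 immunoprecipitates lay above it. This held for 52 of the 78 members and for 13.8% of 17901 genes compared. None was below by the same rule (23% of genes). The median log2 ratio was 1.20 for the large and 1.19 for the small subunit, against -0.08 over all genes. Of the comparison families, 31 of 40 complex I genes were above the input (median log2 ratio 1.39) and 15 of 81 cytosolic ribosomal protein genes (0.53). Scaling by library totals lowered the median of all genes to -0.41 and of the members to 0.86, and 33 members then passed. In bulk RNA, fewer cells of a type and less mRNA per cell cannot be told apart.

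The largest ratio was that of Mrpl41, a protein found only in mitochondria: 27.97 CPM in the input (95% Poisson interval 25.6 to 30.5, counting error only) and 142 ± 36.0 CPM in the immunoprecipitates (SD, n = 18), a ratio of 5.06. Mrpl22, which lines the exit tunnel, followed with 11.4 CPM in the input (9.95 to 13.1) and 56.7 ± 7.76 CPM. Mrps12, a protein of the decoding centre, had 34.4 CPM in the input and 163 ± 44.3 CPM, and the log2 ratios of Mrpl21 and Mrps25 were both 2.01. At the other end, Mrps5, whose bacterial counterpart bears on the accuracy of decoding, had 19.6 CPM in the input (17.6 to 21.7) and 11.8 ± 3.29 CPM in the immunoprecipitates, and all 18 lay below the input. Mrpl3, which reaches toward the peptidyl transferase centre, had 37.7 CPM in the input and 24.4 ± 7.30 CPM, with 17 of 18 below. Mrps22, a mitochondria-specific small subunit protein, had 15.9 CPM and 11.6 ± 4.24 CPM, with 15 of 18 below. Mrps24 and Mrps2 had log2 ratios of -0.20 and -0.19. In all, 72 members had a mean above the input and 6 a mean below it.

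**Figure D1:**
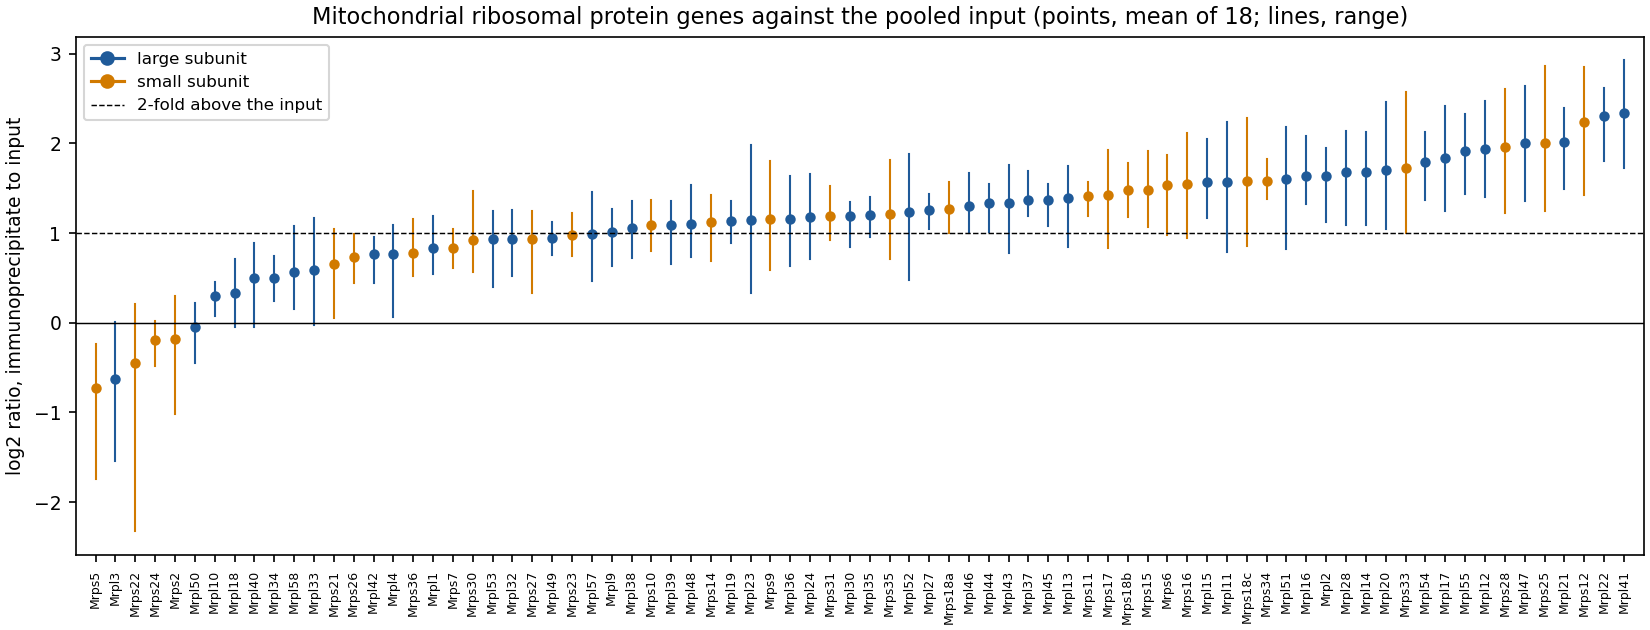
Log2 ratio of each of the 78 genes to the pooled input (vertical axis), ordered by that ratio; points are the mean of 18 immunoprecipitates, lines their range, and the dashed line marks a 2-fold excess. Ratios run from -0.73 (Mrps5) to 2.34 (Mrpl41), and large and small subunit genes are mixed along the order.

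Within the immunoprecipitates, levels are compared between genes as mean CPM per kilobase of transcript, the length being the median over the GENCODE transcripts of a gene. The highest were Mrpl20 (219 CPM per kilobase), Mrps12 (200), Mrpl41 (180), Mrpl12, a protein of the flexible stalk that contacts translation factors (170), and Mrps33 (142). The lowest were Mrps5 (2.60), Mrpl32 (5.55), Mrps35 (5.58), Mrpl1 (6.05) and Mrpl3 (7.67). All 78 members passed the filter on low counts.

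The members' levels varied together over the libraries. Their summed level was lowest at ZT0, with 3819, 4290 and 3744 CPM in replicates 1 to 3. It was 4483, 4959 and 5228 CPM at ZT4 and 4534, 5584 and 5256 CPM at ZT8. Every library of ZT4 and ZT8 thus lay above every library of ZT0. The sums then were 4776, 4616 and 4036 CPM at ZT12, 3852, 3424 and 4736 CPM at ZT16, and 3998, 4139 and 4691 CPM at ZT20. The spread was widest at ZT16 (4004 ± 669 CPM, SD, n = 3), where replicate 2 was the lowest and replicate 3 lay above every ZT0 library. In ZT16 replicate 2, 8 of the 78 members were above their own mean over the 18 libraries, and in ZT16 replicate 3, 64 were. The latter library also had the highest oligodendrocyte marker sum (2876 CPM, against 1503 to 2203 CPM in the other 17). The part of this in the members' levels was not tested.

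The sums of each subunit are given side by side. The Mrpl genes summed to 2620 ± 196 CPM at ZT0 and 3395 ± 336 CPM at ZT8 (SD, n = 3). The Mrps genes summed to 1330 ± 101 and 1729 ± 203 CPM. At ZT16 the sums were 2648 ± 410 CPM for Mrpl and 1356 ± 259 CPM for Mrps. These sums are given without a test. The ratio of the sums was between 1.89 and 2.06 in all 18 libraries, with a mean of 1.97 ± 0.02 at ZT0 and 1.97 ± 0.05 at ZT8. The first principal component of the members' log2 CPM held 75.9% of their variance over the 18 libraries, with 64 members loading in one direction and 14 in the other. Over 9214 genes with a mean log2 CPM above 3, the first component held 52.8%.

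**Figure D2:**
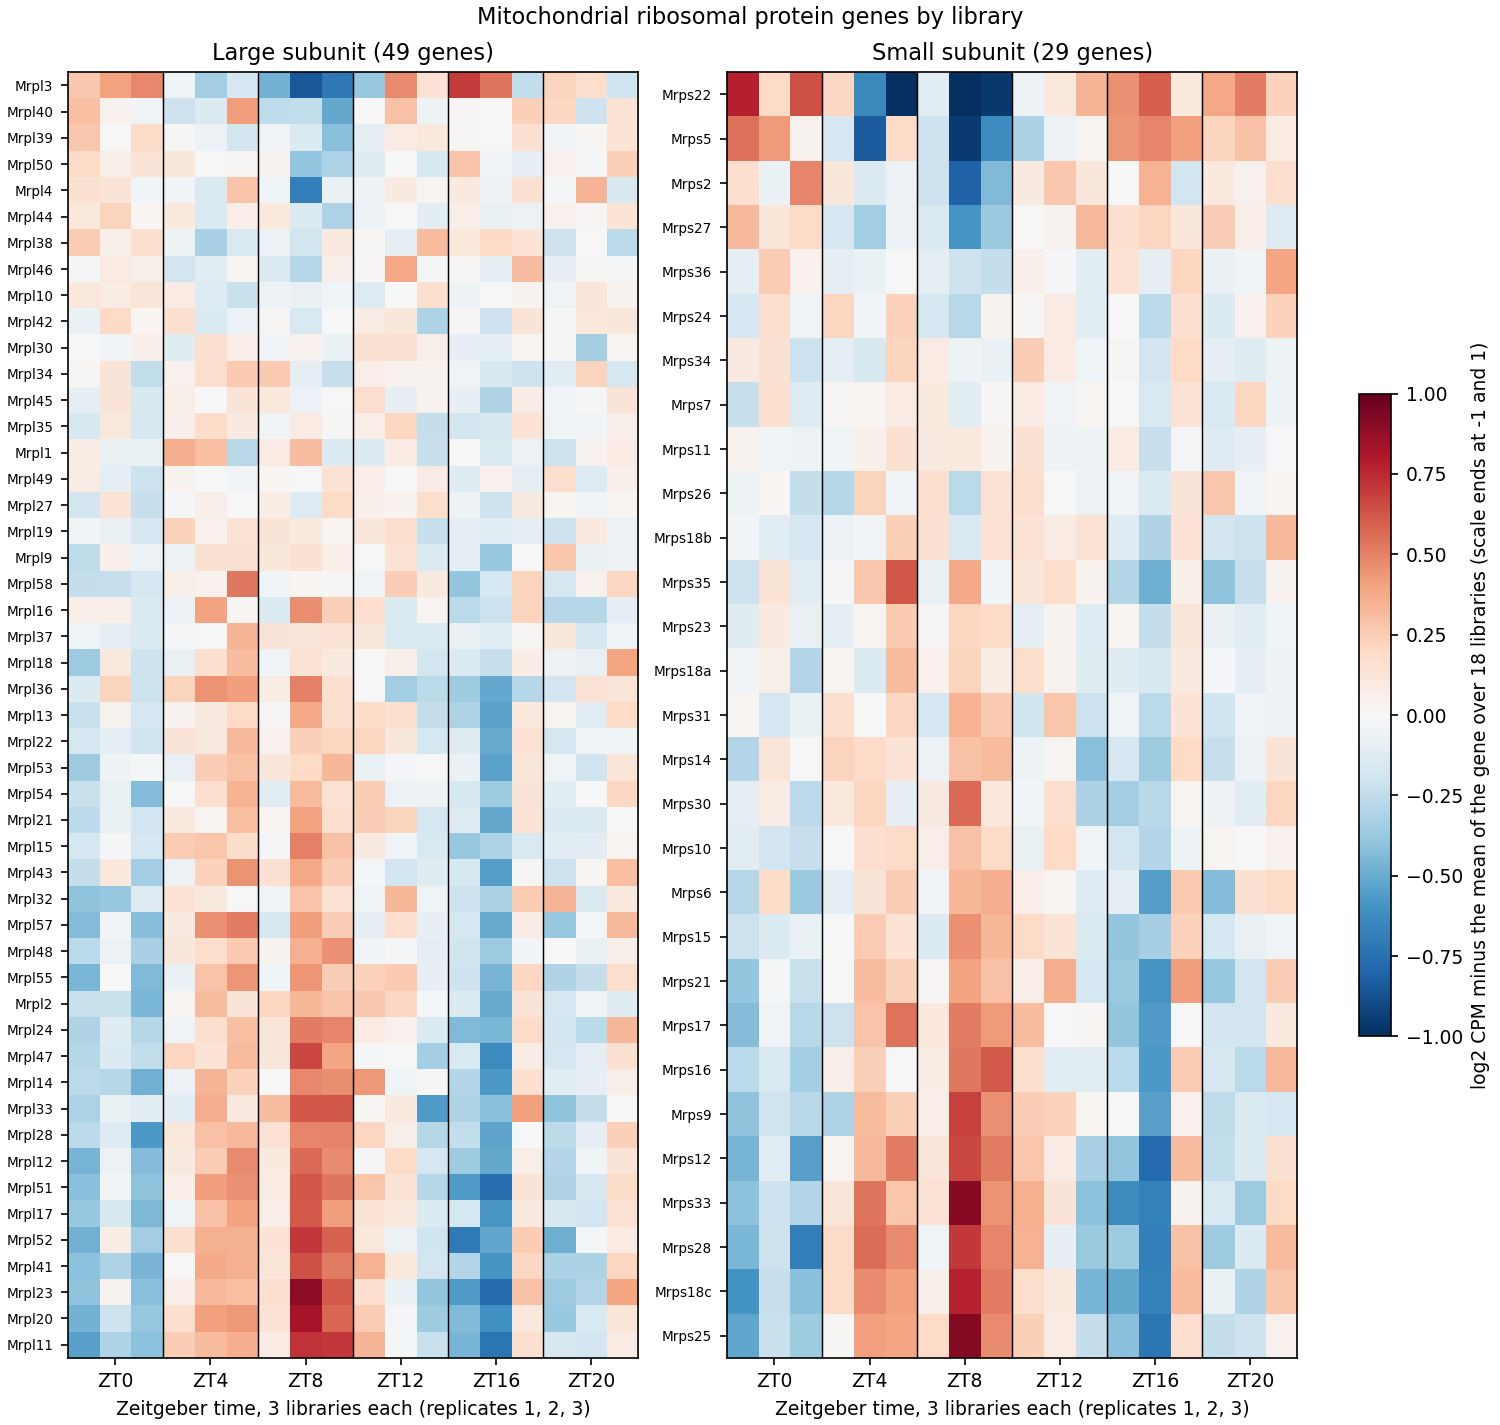
Log2 CPM of each gene minus its mean over the 18 libraries (colour), for large and small subunit genes, ordered by the change between ZT0 and ZT8; columns are libraries by time point. Most genes are high in ZT8 replicates 2 and 3 and low in ZT16 replicate 2, and a few at the top (Mrps22, Mrps5, Mrpl3) run the other way.

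For a 24-h rhythm, a cosine curve was fitted to all 18 libraries with edgeR's quasi-likelihood test, with Benjamini-Hochberg adjustment over 15572 genes. It called 14 of the 78 members (17.9%), against 6.24% of all genes tested. They were 8 Mrpl and 6 Mrps genes. The fitted peak fell in the light period for 12 of the 14 (519 of the 972 genes called), and over all 78 members, called or not, for 61 (7712 of 15572 genes). It was between ZT4 and ZT10 for 58 members (5392 of 15572 genes). The test for any difference among the 6 time points called 15 members (6.74% of genes). JTK_Cycle, a rank test against cosine curves of 20, 24 and 28 h, called no member after adjustment over genes (0.0385% of genes). The lowest adjusted p was 0.0814. With its p adjusted within the gene alone it marked 23 members (15.8% of genes), all at a period of 20 h, as were 2244 of the 2466 genes so marked. The calls of the cosine fit were close to the threshold. They fell to 0 with the oligodendrocyte marker score as a covariate, and also without ZT0 replicate 2, ZT4 replicate 2, ZT4 replicate 3, ZT8 replicate 2, ZT8 replicate 3, ZT12 replicate 1, ZT16 replicate 1, ZT16 replicate 2 or ZT20 replicate 1. They fell to 9 without ZT0 replicate 1 and 2 without ZT0 replicate 3, and rose to 22 without ZT16 replicate 3 and to 31 without ZT20 replicate 3. The calls of the time point test fell to 0 with the covariate, and without ZT0 replicate 1, ZT0 replicate 3, ZT4 replicate 2, ZT8 replicate 2, ZT8 replicate 3 or ZT16 replicate 1. They numbered 5 without ZT4 replicate 3 or ZT12 replicate 2, 4 without ZT16 replicate 2, 7 without ZT20 replicate 1 or ZT20 replicate 2, 28 without ZT8 replicate 1 and 30 without ZT16 replicate 3. The calls of JTK_Cycle numbered 8 without ZT16 replicate 3. Shares of all genes called without these libraries or with the covariate are not given, here or for the pairs below. These counts are therefore not read as a gain or a loss particular to the members, and the part of oligodendrocyte mRNA in them was not tested.

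Of the members called by the cosine fit, Mrps9 had the lowest p (chr1:42851233-42905683). Its protein contacts the tRNA in the P site. Mrps9 measured 34.0, 39.1 and 36.9 CPM at ZT0, 46.9, 71.9 and 61.5 CPM at ZT8, and 37.6, 40.5 and 39.9 CPM at ZT20. The ZT8 libraries lay above all of ZT0 and ZT20. The fitted peak was at ZT8.71 with an amplitude of 0.33 on the log2 scale (adjusted p = 0.0377).

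Mrpl15 (chr1:4773198-4785750), a large subunit protein with a bacterial counterpart, was the Mrpl gene with the lowest p. It measured 63.6, 71.0 and 63.2 CPM at ZT0, 85.1, 86.8 and 81.4 CPM at ZT4, and 54.9, 57.9 and 64.2 CPM at ZT16. The ZT4 libraries stood above both other groups. The fitted peak was at ZT5.95 (amplitude 0.24, adjusted p = 0.0388). Mrpl36 peaked earliest, at ZT4.18 (amplitude 0.31, adjusted p = 0.0388), with 42.5, 49.6 and 48.6 CPM at ZT4 and 28.5, 25.5 and 29.9 CPM at ZT16. No ZT16 library reached the lowest of ZT4. Mrpl20, Mrpl2, Mrps25, Mrpl11, Mrps33, Mrpl41, Mrps17, Mrpl12 and Mrpl51 had fitted peaks from ZT6.88 (Mrpl51) to ZT8.57 (Mrpl2), amplitudes from 0.25 (Mrpl2) to 0.39 (Mrps33) and adjusted p from 0.0409 to 0.0491.

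Mrps5 and Mrps22 were called with peaks in the dark period, both at ZT19.4. Mrps5 (chr2:127587426-127603986) measured 16.4, 15.0 and 11.5 CPM at ZT0. It fell to 9.67, 5.77 and 7.19 CPM in the ZT8 libraries and measured 15.2, 15.7 and 14.9 CPM at ZT16. The ZT8 libraries were below all of ZT0 and ZT16. The amplitude was 0.46 (adjusted p = 0.0391). Its counts were not whole in 16 of the 19 libraries, so part of its reads were shared with other sequence, which was not examined. Mrps22 (chr9:98588730-98601679) measured 18.1, 12.1 and 16.4 CPM at ZT0, 9.80, 3.13 and 5.41 CPM at ZT8 and 14.5, 16.0 and 11.3 CPM at ZT16. Its ZT8 libraries were also below all of ZT0 and ZT16, although ZT8 replicate 1 was well above the other ZT8 libraries. The amplitude was 0.59 (adjusted p = 0.0434).

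**Figure D3:**
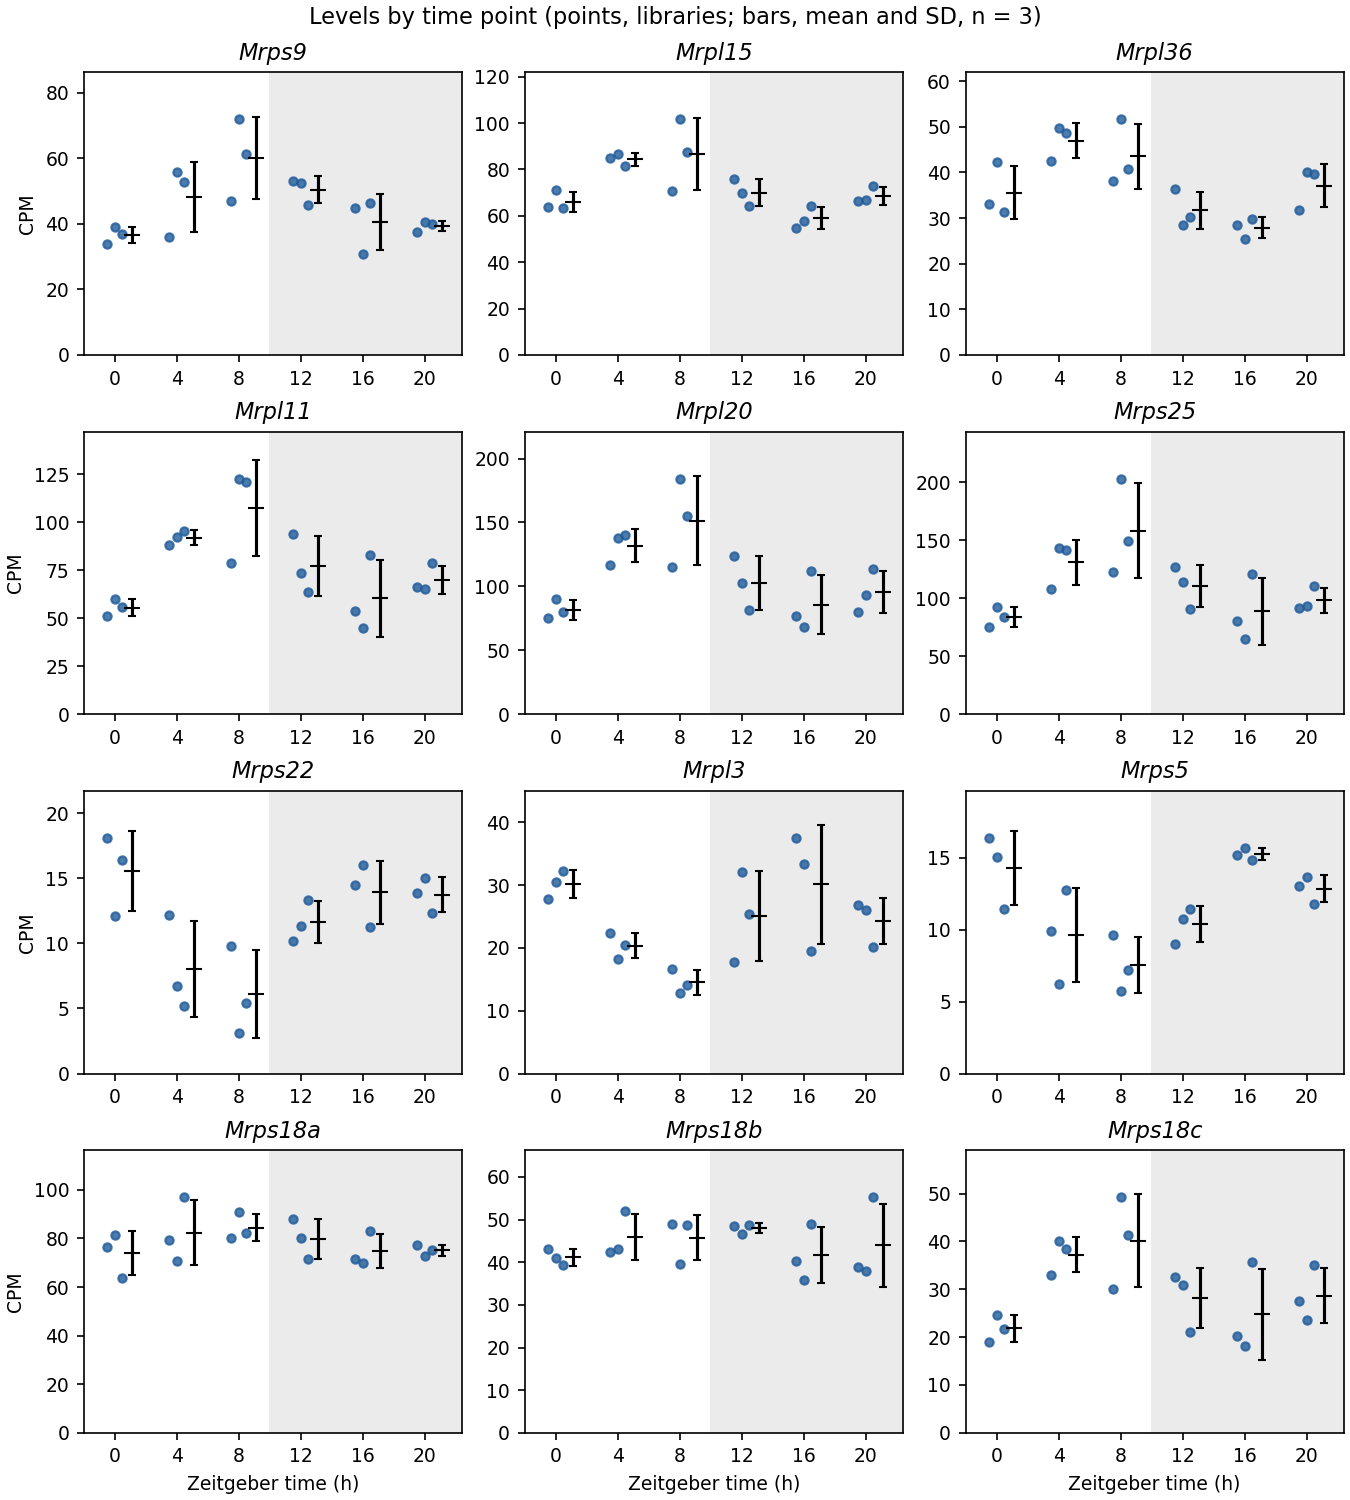
CPM by Zeitgeber time for 12 genes; points are libraries (replicates 1, 2 and 3 from left to right), bars the mean and SD (n = 3), and grey the samples from ZT12 to ZT20. Mrps9 to Mrps25 are highest at ZT4 or ZT8, Mrps22, Mrpl3 and Mrps5 are lowest at ZT8, and of the 3 Mrps18 genes Mrps18c varies most.

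Between ZT0 and ZT8, 31 of the 78 members were called and 47 were not. By edgeR's quasi-likelihood test, with Benjamini-Hochberg adjustment over all genes, 25 were higher at ZT8 (8.95% of genes were) and 6 lower (9.02% of genes), a share that is no larger than that of all genes. The higher ones were 16 of 49 Mrpl and 9 of 29 Mrps genes. The median log2 change over all 78 members was 0.27, against -0.003 over all genes. For comparison, 43 of 81 cytosolic ribosomal protein genes were higher and 1 lower (median 0.58), as were 22 and 3 of 40 complex I genes (median 0.49). The count of 31 members depended on some libraries. It was 2 without ZT8 replicate 2, 9 without ZT0 replicate 1, 14 without ZT0 replicate 3 and 17 without ZT8 replicate 3, and 0 without all libraries of replicate 2 or all of replicate 3, whereas the median change stayed between 0.21 and 0.36.

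Mrpl11, at the base of the stalk where translation factors bind, rose most. It measured 50.9, 59.9 and 55.8 CPM at ZT0 and 78.6, 123 and 121 CPM at ZT8. All ZT8 libraries were higher, replicate 1 least so. The log2 change was 0.95 ± 0.19 (SE, adjusted p = 0.0061).

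Mrps25, a mitochondria-specific protein, measured 74.99, 92.1 and 84.2 CPM at ZT0 and 122, 203 and 149 CPM at ZT8, a log2 change of 0.92 ± 0.20 (adjusted p = 0.0073). Mrpl20, whose bacterial counterpart binds early in assembly of the large subunit, measured 75.1, 90.2 and 79.9 CPM at ZT0 and 115, 184 and 155 CPM at ZT8. Its log2 change was 0.89 ± 0.19 (adjusted p = 0.0072). In both genes the time points did not overlap and ZT8 replicate 2 was the highest library.

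Mrps28 measured 22.5, 26.7 and 19.1 CPM at ZT0 and 30.0, 50.4 and 43.3 CPM at ZT8 (log2 change 0.87 ± 0.24, adjusted p = 0.0189). Again ZT8 replicate 1 was the closest to ZT0. The other 20 members that rose, beside these 4 and Mrps18c, which is described with its paralogs, changed by 0.37 (Mrps10) to 0.84 (Mrpl23).

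The members that fell were Mrps22, Mrpl3, Mrps5, Mrps2, Mrps27 and Mrpl39. Mrps22 fell by 1.36 on the log2 scale (SE 0.31, adjusted p = 0.0088) and Mrps5 fell by 0.92 (SE 0.22, adjusted p = 0.0105). Mrpl3 measured 27.8, 30.4 and 32.2 CPM at ZT0 and 16.6, 12.8 and 14.1 CPM at ZT8. All 3 ZT8 libraries were far below those of ZT0, and the log2 change was -1.06 ± 0.21 (SE, adjusted p = 0.0061).

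Mrps2, a small subunit protein with a bacterial counterpart, measured 25.7, 21.8 and 32.0 CPM at ZT0 and 19.7, 13.1 and 16.8 CPM at ZT8 (log2 change -0.69 ± 0.17, adjusted p = 0.0106). Mrps27, which carries RNA-binding pentatricopeptide repeats, measured 55.7, 48.6 and 50.8 CPM at ZT0 and 40.4, 29.7 and 34.5 CPM at ZT8 (log2 change -0.57 ± 0.13, adjusted p = 0.0088). The time points did not overlap for either gene. Mrpl39 changed by -0.35.

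Other measures of the members that fell and of those that rose are set side by side. The 6 that fell were no larger a share of the members than the 9.02% of all genes called lower. The median log2 ratio of these 6 to the input was -0.32, against 1.61 for the 25 that rose and 1.13 for the 47 not called. Their median transcript was 2187 bases long, against 1047 and 1223 bases. These medians are descriptions without a test, and the ratio to the input includes the ZT0 and ZT8 libraries. The ETS motif stood in 3 of the 6 promoters of members that fell and in 7 of the 23 known promoters of those that rose, and the NRF1 motif in 1 of 6 and 4 of 23.

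Between ZT8 and ZT16 more members fell than rose. There were 25 members lower at ZT16 (7.8% of genes) and 5 higher (9.11% of genes), with a median log2 change of -0.28 against 0.005 over all genes. This comparison shares its ZT8 libraries with the one before. Mrps33, a mitochondria-specific small subunit protein, changed most among those that fell. It measured 108, 184 and 133 CPM at ZT8 and 63.3, 61.1 and 100 CPM at ZT16, a log2 change of -0.92 ± 0.22 (SE, adjusted p = 0.0094). Mrpl23, a protein at the exit of the tunnel, measured 47.4, 78.4 and 64.8 CPM at ZT8 and 28.5, 24.8 and 51.7 CPM at ZT16 (log2 change -0.86 ± 0.25, adjusted p = 0.0225). For Mrps33 the time points did not overlap, and for Mrpl23 ZT16 replicate 3 reached above ZT8 replicate 1. The expected counts of both genes held values that were not whole, so their levels are less certain. Which sequences shared their reads was not examined.

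Mrps25, Mrpl11 and Mrpl20 followed with changes of -0.84, -0.83 and -0.82. The members that rose were Mrps22 (log2 change 1.20 ± 0.32, adjusted p = 0.0151), Mrpl3 (1.06 ± 0.22, adjusted p = 0.0070), Mrps5 (1.02 ± 0.22, adjusted p = 0.0086), Mrps2 (0.54 ± 0.17) and Mrps27 (0.52 ± 0.13). For Mrpl3 the values at ZT16 were 37.5, 33.4 and 19.5 CPM, so replicate 3 lay well below the others yet above all of ZT8. The count of 30 members fell to 0 without ZT8 replicate 2, without ZT16 replicate 2, or when only the 6 libraries of both time points were fitted. It was 1 with the oligodendrocyte marker score as a covariate, 6 without ZT16 replicate 1 and 8 without ZT8 replicate 3, whereas the median change ran from -0.43 without ZT16 replicate 3 to -0.17 without ZT16 replicate 2 among single libraries left out.

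ZT20 was compared with ZT8 as the time point 12 h away. No member was called by edgeR (0% of genes were), and the lowest adjusted p, of Mrps22, was 0.0706. At an unadjusted p under 0.05, 24 members were lower at ZT20 (10.4% of genes) and 8 higher (11.9% of genes), and DESeq2 called 12 members. The lowest p-values were those of Mrps22 (log2 change 1.18 ± 0.32), Mrps9 (-0.61 ± 0.17), Mrpl20 (-0.66 ± 0.19), Mrps25 (-0.68 ± 0.20) and Mrpl3 (0.74 ± 0.22). The median over the members was -0.19. Without ZT8 replicate 1, 25 members were called, and without ZT16 replicate 3, 7. The share of 0% above belongs to the full edgeR fit alone. Shares of all genes called by DESeq2 or without these libraries are not given.

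In the other 12 pairs of time points edgeR called no member either, with between 0 (ZT20 against ZT12, 768 of 15572 genes) and 36 (ZT4 against ZT0, 3111 of 15572 genes) of the 78 at an unadjusted p under 0.05. DESeq2 was not run for them. At ZT4 against ZT0 the median log2 change was already 0.26, and 62 of the 78 fitted changes were positive, against 7763 of 15572 over all genes.

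The 3 Mrps18 paralogs descend from 1 bacterial ribosomal protein, and their proteins are known to occupy different places in the mitochondrial ribosome. Mrps18c (chr5:100798759-100804467) measured 19.1, 24.6 and 21.7 CPM at ZT0, 30.0, 49.2 and 41.3 CPM at ZT8 and 20.3, 18.2 and 35.8 CPM at ZT16. It was higher at ZT8 than at ZT0 (log2 change 0.89 ± 0.23, SE, adjusted p = 0.0140) and lower at ZT16 than at ZT8 (-0.70 ± 0.23, adjusted p = 0.0410), although ZT16 replicate 3 overlapped ZT8.

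Mrps18a (chr17:46111004-46128908) measured 76.5, 81.3 and 63.9 CPM at ZT0 and 80.2, 91.0 and 82.3 CPM at ZT8, and the groups overlapped (log2 change 0.20 ± 0.12, adjusted p = 0.297). Mrps18b (chr17:35910380-35916440) measured 43.2, 41.0 and 39.3 CPM at ZT0 and 49.0, 39.6 and 48.7 CPM at ZT8, again with overlap (0.15 ± 0.15, adjusted p = 0.512). The difference between the paralogs' changes was not tested. Their promoters, printed above, hold different sets of the motifs searched. Any link of a motif to the paralogs' levels was not tested.

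The size of the change went with transcript length. The members' median transcript was 1224.5 bases long (440.5 to 6073), against 2627 bases over 14924 tested genes with a length. Between ZT0 and ZT8, other genes with transcripts up to 500 bases had a median log2 change of 0.60, and those over 500 and up to 1000 bases 0.30. The medians were 0.03, -0.08 and -0.03 in the next classes, with limits at 2000 and 4000 bases. The members' medians in the same classes were 0.71 (4 genes), 0.37 (26), 0.22 (28), 0.16 (14) and 0.17 (6). They were above those of other genes in each of the 5 classes.

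With each library's trend over length and GC content removed, 24 members were higher and 10 lower at ZT8 than at ZT0, 27 of them among the 31 above. All genes called were then 21.2%, and the median log2 change was 0.20 over the members against 0.03 over all genes. Mrpl20, with a transcript of 494 bases, went from 0.89 to 0.45, Mrps18c from 0.89 to 0.53 and Mrps18a from 0.20 to -0.06. The corrected values were 1.02 for Mrpl11 (1929 bases) and 0.92 for Mrps25 (6073 bases). Mrps22 (-1.47), Mrpl3 (-0.99) and Mrps5 (-0.87) were called with the same direction, and Mrpl39 was no longer called (-0.28, adjusted p = 0.0749). At ZT16 against ZT8 this correction left 23 members lower and 8 higher (20.2% of all genes were called), with Mrps18c no longer called (adjusted p = 0.0744), and the cosine fit called 19, with 15 peaks in the light period, and 1680 of all genes, against 972 without the correction.

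**Figure D4:**
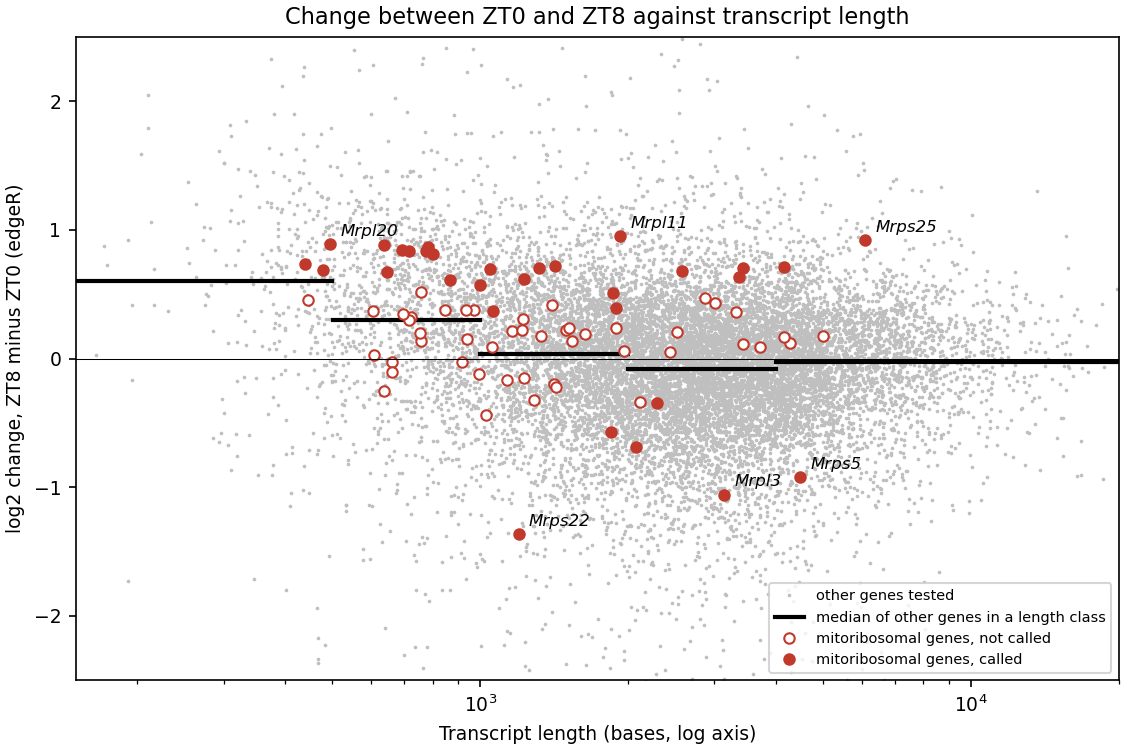
Log2 change from ZT0 to ZT8 (vertical axis) against transcript length (log axis) for all tested genes with a length; red circles are the mitochondrial ribosomal protein genes, filled where called, and black bars the median of other genes in 5 length classes. The bars run from 0.60 in the shortest class to -0.08 in that of 2000 to 4000 bases, and filled circles lie on both sides of 0; genes outside the axes are not drawn.

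Markers of the cells themselves also moved. Of the 7 cholinergic neuron markers, 4 were lower at ZT8 than at ZT0 and none higher (median log2 change -0.64), and 5 were higher at ZT16 than at ZT8 (median 0.59). Their summed level, set mostly by the abundant ones, was 4403 ± 246 CPM at ZT8 and 4582 ± 252 CPM at ZT0. The oligodendrocyte markers summed to 2008 ± 192 CPM at ZT0, 1850 ± 132 CPM at ZT8 and 2251 ± 541 CPM at ZT16. Of the 7, 2 were called lower at ZT8 than at ZT0 and 2 higher at ZT16 than at ZT8. The median log2 change of the 7 was 0.04 from ZT0 to ZT8, with only 3 fitted lower, and 0.18 from ZT8 to ZT16. Among inhibitory neuron markers 2 of 4 were lower at ZT8 than at ZT0. Of the 5 microglial markers tested 1 was called higher at ZT8 than at ZT0 and 1 lower at ZT16 than at ZT8. The medians of the 5 ran the other way. They were -0.96 from ZT0 to ZT8, with 3 of 5 fitted lower, and 0.98 from ZT8 to ZT16. No astrocyte, excitatory neuron, endothelial or erythrocyte marker was called in either comparison. All 4 erythrocyte markers nevertheless had fitted values higher at ZT8 than at ZT0 (median log2 change 0.42) and lower at ZT16 than at ZT8 (median -0.36), and the cosine fit called 2 of them. They summed to 268 ± 59.7 CPM at ZT0, 341 ± 99.5 CPM at ZT8, 675 ± 76.6 CPM at ZT12 and 276 ± 96.8 CPM at ZT16. The part of these shifts in the members' changes was not tested.

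**Figure D5:**
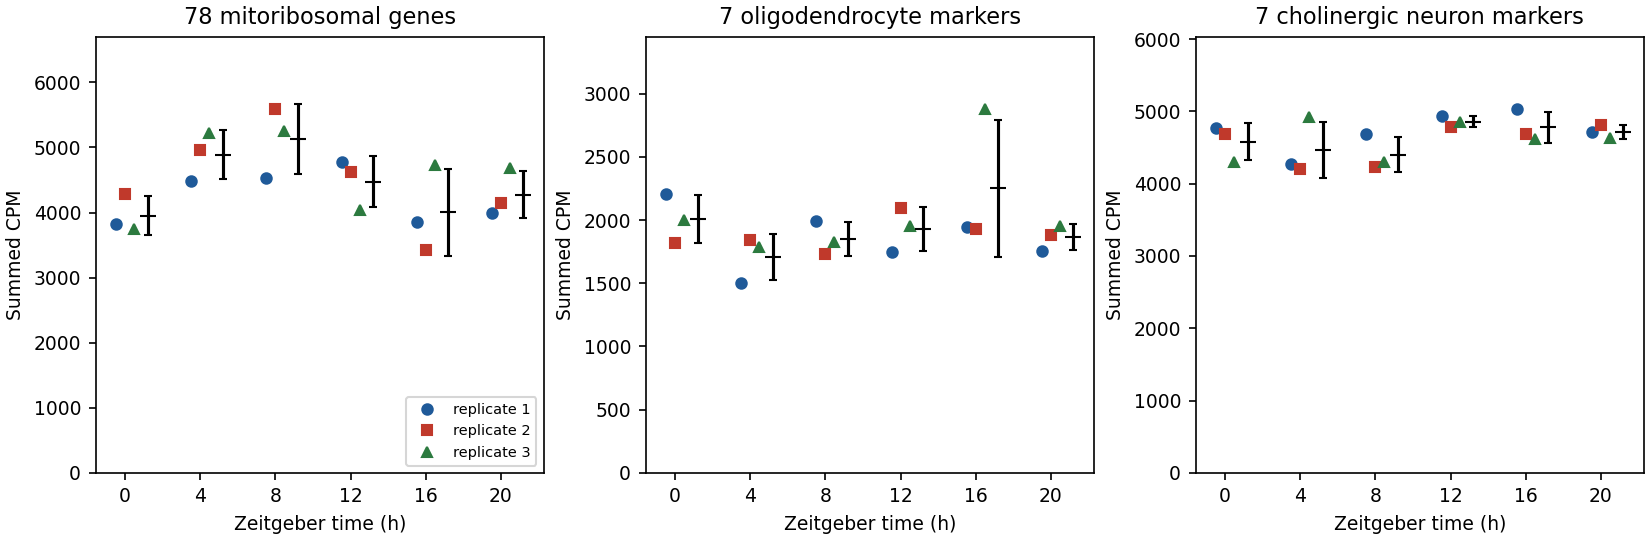
Summed CPM by Zeitgeber time of the 78 mitochondrial ribosomal protein genes, 7 oligodendrocyte markers and 7 cholinergic neuron markers; symbols are the replicates and bars the mean and SD (n = 3). The members' sum is 3951 at ZT0 and 5125 at ZT8, and ZT16 replicate 3 is high for both the members and the oligodendrocyte markers.

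Other proteins of the mitochondrial ribosome carry other symbols. Of 5 measured (Dap3, Ptcd3, Gadd45gip1, Chchd1 and Aurkaip1; Ict1 is listed as the member Mrpl58), Aurkaip1 was higher at ZT8 than at ZT0 (175 ± 11.4 to 304 ± 38.1 CPM, SD, n = 3; log2 change 0.80 ± 0.16, SE, adjusted p = 0.0059) and peaked at ZT7.90. Chchd1 was lower (12.1 ± 0.58 to 7.38 ± 2.61 CPM, log2 change -0.71 ± 0.22, adjusted p = 0.0322). Gadd45gip1 had a log2 change of 0.53 ± 0.20 (adjusted p = 0.0690). Both directions seen among the members thus occurred here.

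Of 12 mitochondrial translation factors, 1 was higher at ZT8 and 2 lower (median -0.04). Tsfm, the exchange factor that reloads the elongation factor Tufm, measured 51.0 ± 9.95 and then 116 ± 29.0 CPM (log2 change 1.20 ± 0.23, adjusted p = 0.0057) with a peak at ZT7.40. Tufm itself went from 162 ± 16.4 to 87.0 ± 34.8 CPM (log2 change -0.90 ± 0.19, adjusted p = 0.0069). The factor and its exchange partner thus moved in opposite directions, and at ZT16 against ZT8, which uses the same ZT8 libraries, the log2 changes were -1.24 for Tsfm and 0.83 for Tufm. Oxa1l, which inserts new proteins into the inner membrane, changed by -0.48 ± 0.13 (adjusted p = 0.0157).

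Of 22 assembly factors, 3 were higher and 2 lower at ZT8 than at ZT0. Those with the lowest p for a 24-h rhythm were Eral1, a chaperone of small subunit rRNA (log2 change from ZT0 to ZT8 -0.80 ± 0.17, adjusted p = 0.0073, peak at ZT19.9), the GTPase Mtg2 (-1.27 ± 0.43, adjusted p = 0.0455) and Ngrn (0.39 ± 0.15, adjusted p = 0.0795). Of 21 mitochondrial tRNA synthetases and related enzymes, 1 was higher and 5 lower, with a median of -0.25. Lars2, the leucyl-tRNA synthetase, was the one that rose (1.24 ± 0.41, adjusted p = 0.0415). It measured 737 ± 91.8 CPM at ZT0 and 1740 ± 355 CPM at ZT8 (SD, n = 3). Next highest in this list at ZT0 was Iars2, with 45.2 ± 2.45 CPM. Which part of the Lars2 reads came from its mRNA was not tested. Pars2 (-1.05 ± 0.33, adjusted p = 0.0325) and Iars2 (-0.45 ± 0.15, adjusted p = 0.0420) were among those that fell.

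Of 10 genes of mitochondrial DNA upkeep and expression, none was higher and 1 lower. It was Polrmt, the mitochondrial RNA polymerase (29.4 ± 4.17 to 17.8 ± 3.51 CPM, log2 change -0.72 ± 0.20, adjusted p = 0.0182). Twnk, which starts 116 bases from Mrpl43, had a log2 change of 0.52 ± 0.19 (adjusted p = 0.0574). That of Slirp, an RNA-stabilizing protein, was also 0.52 ± 0.19 (adjusted p = 0.0584).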

How the data were processed

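Per the labels, libraries were made from polyadenylated RNA with a stranded kit, aligned with STAR 2.7.5 to mm10 and counted with RSEM. The authors deposited its expected counts for each gene without normalization. Expected counts divide reads that match several genes. Values that were not whole occurred in 10 members (Mrpl22, Mrpl23, Mrpl27, Mrpl48, Mrpl51, Mrps18b, Mrps21, Mrps33, Mrps36 and Mrps5), so their levels are less certain. Which sequences shared these reads was not examined.

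Counts were rounded, filtered with filterByExpr over the time points (15572 genes) and scaled by TMM in edgeR 4.0.16 (R 4.3.3); log2 CPM carried a prior count of 2. The quasi-likelihood test was fitted to all 18 immunoprecipitates, with Benjamini-Hochberg adjustment at 0.05 over all genes, for a 24-h cosine, for time points and for their 15 pairs. The common coefficient of variation between replicates was 19.2%. JTK_Cycle used 18 templates at steps of 2 h, with the exact null distribution and Bonferroni adjustment within a gene. The input was compared on a separate TMM scale over 19 libraries. Lengths came from GENCODE M21, and coordinates and promoters from RefSeq (GRCm38.p6), matched by symbol; 1 promoter per gene was read, at the farthest upstream of the starts in the promoter table, which for some genes lies inside the annotated span. Scripts were tested on simulated data. DESeq2 1.42.0, other scalings, filters, a replicate term, an oligodendrocyte marker score, a correction for length and GC content, and left-out libraries were alternatives.

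The members, the other gene lists and the marker lists were chosen with earlier results of these data known. Members were named with values when called by the cosine fit, among the 5 highest or lowest per length or against the input (at least 100 counts there), among the 5 largest changes in each direction between ZT8 and ZT0, ZT16 or ZT20 (the 5 lowest p where none was called), or as Mrps18 paralogs; the 3 genes of lowest cosine p stand for each other list. Members picked out beside these, such as Mrpl39, and the length classes were chosen after the values were seen.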

Additional observations from a re-analysis of the deposited data

How the results depend on the processing

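No direction reversed under any alternative for the medians and the named members that were called. Calls of named members were often lost, however. With the oligodendrocyte score 23 of 39 results for named members lost their call, and with only the libraries of the pair 10 of 25. With libraries left out 265 of 819 lost it and 12 gained one. Counts of members in this section stand without the share of all genes called under the same setting, unless it is given. They are therefore not read as a gain or a loss particular to the members. Under DESeq2 the cosine fit called 25 members, the time point test called 30 and ZT20 against ZT8 called 12. With genes of at least 1 count these were 29, 33 and 22. With the oligodendrocyte score as a covariate they were 0, 0 and 0, and ZT16 against ZT8 1, while ZT8 against ZT0 called 29. With only the libraries of the pair, ZT16 against ZT8 called 0. Removing length and GC trends gave 2 members by JTK_Cycle. For ZT20 against ZT8 it gave 5 members, while 5.05% of all genes were called. JTK_Cycle adjusted within the gene alone gave 23. Under library totals 33 members were above and 1 below the input, and 1 was below at a ratio of at least 1.5.

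Leaving out single libraries or a replicate number, the members called ranged from 0 to 8 (JTK_Cycle), 0 to 31 (cosine), 0 to 30 (time points), 0 to 38 (ZT8 against ZT0), 0 to 40 (ZT16 against ZT8) and 0 to 25 (ZT20 against ZT8). The median changes ranged from 0.21 to 0.36, from -0.43 to -0.11 and from -0.26 to -0.14 in these 3 pairs. Members above the input ranged from 52 to 55, and below it from 0 to 0. Without every replicate 2 no member was called in any of these tests between time points. The cause of these shifts was not tested.

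A replicate block gave 3 members by JTK_Cycle (14 by the cosine fit, 13 by time point, 30, 30 and 0 in the 3 pairs). Deviations of same-numbered libraries correlated between -0.52 and 0.59 (18 of 45 over 0.1), and of others between -0.55 and 0.53, so the numbers were not taken to pair the libraries.

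The shallowest library held 6302140 counts, and the input was 1 library, so ratios to it carry no replicate error.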
